A study of Danio rerio with 15 samples.

Results

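Transcripts of the insulin-like growth factor (IGF) binding proteins were measured in whole zebrafish larvae at 5 days post fertilization whose parents had eaten a diet with or without arsenic. The genes were taken from a table of read counts by identifier for IGFBP3 and by gene name for the others. The rule gave 9 of the 32520 genes in the table, and 7 of the 9 passed the filter on low counts that left 22012 genes for testing. Parents of the Control, Low and High groups ate, over 60 days, blackworms (Lumbriculus variegatus) that had spent 14 days in 0, 2.5 or 5.0 mg/L of sodium arsenite. By the sample labels the Control worms held less than 0.05 µg/g of arsenic, the Low worms 32.4 µg/g and the High worms 72.47 µg/g, and the protocol text differs slightly for Low. All larvae were labelled WT, were themselves raised without arsenic, and came as 5 libraries per group. A count of 20 larvae is labelled, and whether it applies to each library is not stated. The labels name no clutch or parents for a library, so p-values cover the spread between these samples, which may be technical.

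IGF binding proteins are secreted proteins that hold IGF1 and IGF2 in the blood and tissue fluid. They lengthen the life of the growth factors and limit their access to the IGF1 receptor, and proteases of the pappalysin family set the growth factors free again by cutting some of the binding proteins. In vertebrates IGFBP1 is a liver product that rises with fasting, low oxygen and stress hormones, and in zebrafish embryos Igfbp1 slows growth under low oxygen. Zebrafish Igfbp3 takes part in the formation of pharyngeal cartilage and the inner ear, and zebrafish igfbp5a is known from calcium-transporting ionocytes of the skin.

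The 9 genes comprise the pairs of copies of IGFBP1, IGFBP2, IGFBP5 and IGFBP6 and the single IGFBP3. The names igfbp1b, igfbp6a and igfbp6b are given to 1 identifier each, and IGFBP1 (ENSDARG00000099351) is the remaining IGFBP1 copy. Both IGFBP2 copies share 1 symbol, as do both IGFBP5 copies, so these are given by identifier without a copy letter. In the RefSeq gene order igfbp1a and igfbp3 are neighbours, and each igfbp2 copy lies next to an igfbp5 copy. IGFBP2 (ENSDARG00000052470) had 2 to 8 counts per library and IGFBP5 (ENSDARG00000039264) had 1 to 9, and both fell below the filter. Transcript lengths were not used here, so levels are compared between libraries of a gene and not between genes.

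The libraries held between 21.2 and 59.9 M counts. Libraries of the same group differed in transcripts of the digestive organs. Markers of the exocrine pancreas had a mean log2 CPM (counts per 1000000) of 5.94 to 7.81 in Control 2, Control 4, Low 5, High 2, High 4 and High 5, and of -2.01 to 1.54 in the other 9 libraries. Liver markers had a mean log2 CPM of 4.51 to 7.54 in 8 libraries (Control 1 and 2, Low 1 and 5, and High 1, 2, 4 and 5) and of -0.40 to 3.06 in the other 7. In whole larvae, fewer cells of a type and less RNA per cell cannot be told apart.

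IGFBP3 (ENSDARG00000099144) was the 1 member that passed the test, in the comparison of High with Low. It was lowest in larvae of Low parents, and the High and Control groups were close to each other. Its values in Control 1 to 5 were 62.3, 48.9, 51.9, 63.7 and 58.1 CPM. In Low 1 to 5 they were 40.6, 40.8, 33.5, 35.7 and 39.6 CPM, and in High 1 to 5 they were 58.4, 68.2, 66.9, 49.95 and 43.6 CPM. Every Low library lay below every library of both other groups, and the High and Control values overlapped. In Low against Control 0.813% of all genes had every Low library below every Control library, and 1 of the 7 tested members did. The share of genes with Low below both other groups was not computed.

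IGFBP3 averaged 57.4 ± 10.6 CPM in High and 38.0 ± 3.26 CPM in Low (SD, n = 5 each). High was 1.51-fold higher than Low, or 0.59 on the log2 scale (SE 0.12), and the quasi-likelihood test of edgeR gave an adjusted p of 0.029 (Benjamini-Hochberg, over all genes tested). In that comparison 1.71% of all genes were called in either direction and 0.672% of all genes were called higher, and 1 of the 7 tested members was called. Against Control, at 57.0 ± 6.44 CPM, the log2 fold change of Low was -0.58 (SE 0.12), of the same size. Its adjusted p was 0.41 by edgeR, where 0% of genes were called (65 by DESeq2 and 1436 by limma voom) and 9.53% had an unadjusted p below 0.05. With an unadjusted p of 0.00026 IGFBP3 stood at rank 10 of the 22012 genes there. High and Control differed by 0.01 on the log2 scale (SE 0.12, edgeR adjusted p = 0.98), with a 95% confidence interval of -0.25 to 0.27.

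**Figure D1:**
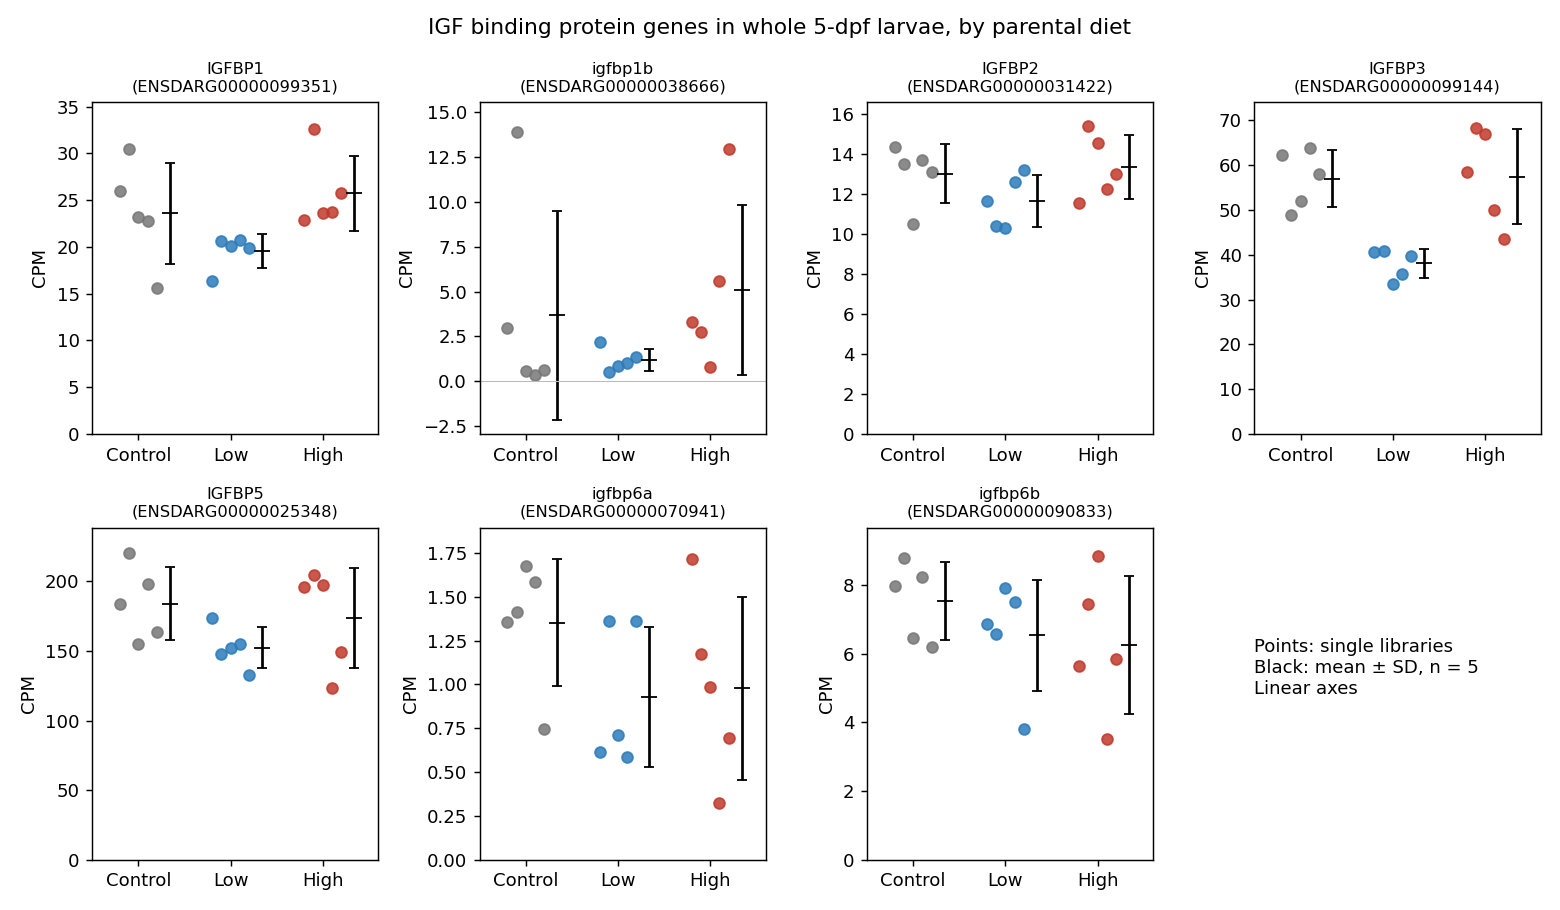
CPM of the 7 tested IGF binding protein genes in each library (points) by parental diet, with the group mean and SD in black (n = 5, linear axes). For IGFBP3 the 5 Low libraries, at 33.5 to 40.8 CPM, sit below all others, and for igfbp1b single libraries reach 13.9 CPM in Control and 12.9 CPM in High.

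The call of IGFBP3 between High and Low did not hold in every fit. It was kept in 5 of 10 fits that left out 1 library, and was lost without High 1, High 2, Low 1, Low 3 or Low 4, with edgeR adjusted p of 0.064 to 0.095 and log2 fold changes of 0.52 to 0.63. It was also lost, at 0.053, with the level of digestive markers as a covariate and, at 0.069, in a fit of the High and Low libraries alone. The log2 fold changes there were 0.64 and 0.59, and both fits called fewer of all genes. A fit with the replicate number as a block lost the call too. Between Low and Control, DESeq2 and limma voom called IGFBP3, each with an adjusted p of 0.018, and edgeR did so without Low 5 (adjusted p = 0.041). Its direction was kept in all 19 alternative fits of each of the 2 comparisons. These fits share libraries, and Low overlapped neither other group in CPM, so the direction could hardly turn.

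**Figure D2:**
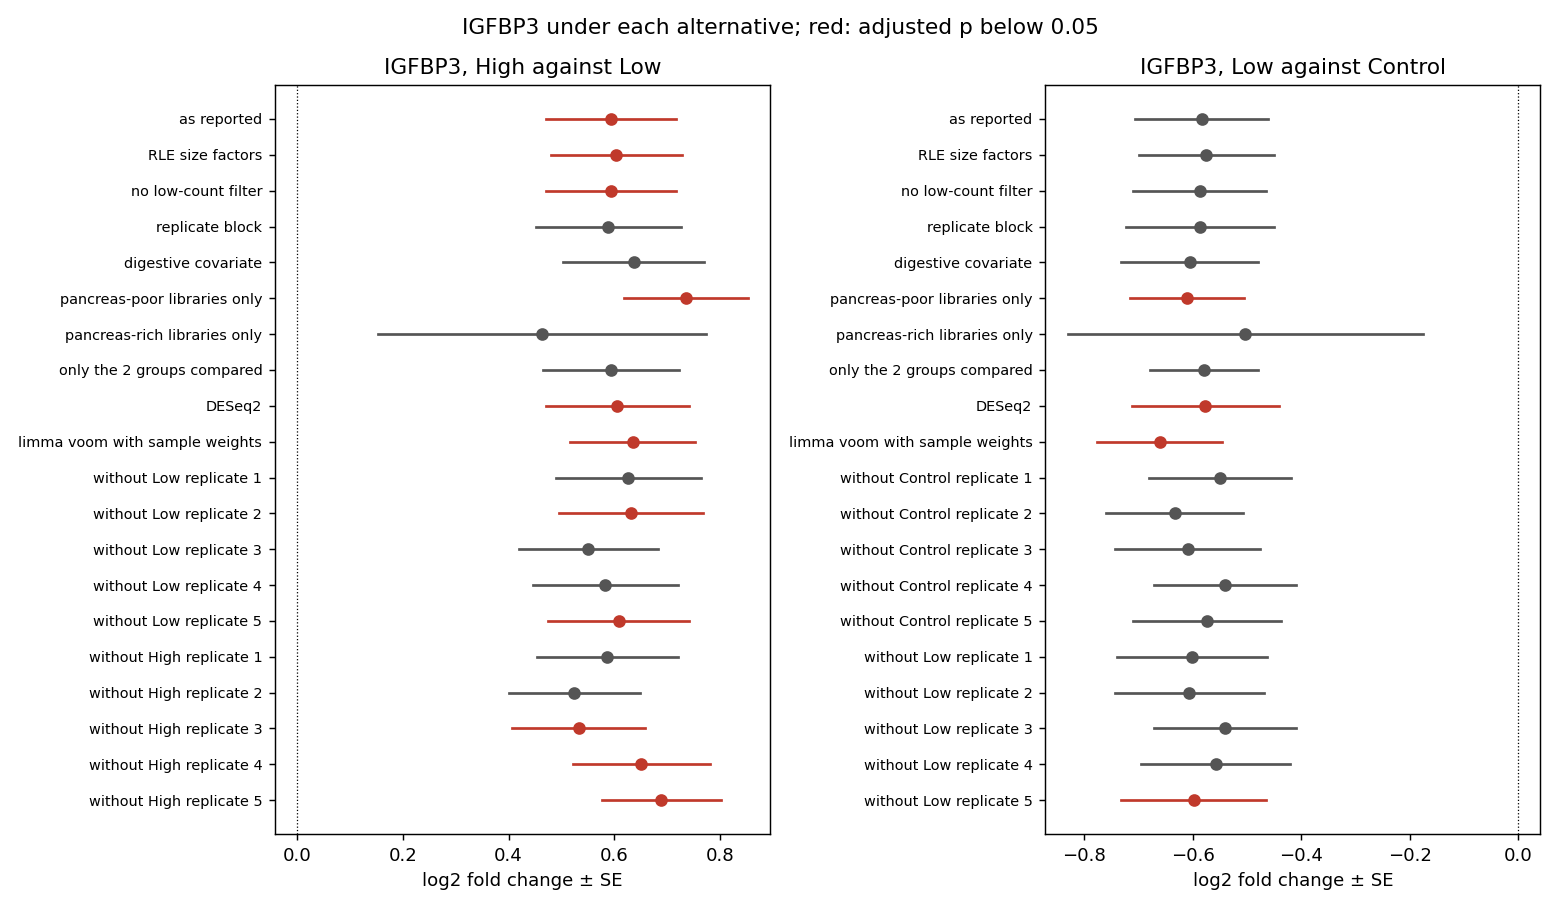
log2 fold change of IGFBP3 (x axis, ± SE) as reported and under each alternative (y axis), for High against Low and for Low against Control, with adjusted p below 0.05 in red. Values stay between 0.46 and 0.74 for High against Low and between -0.66 and -0.50 for Low against Control.

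IGFBP3 was also compared within the libraries poor or rich in pancreas RNA, a split added after the data were seen. Only Low 5 of the Low libraries is rich. The poor libraries thus leave out the same Low library as the fit without Low 5 above, and these results are not independent. Every Low library lay below all others, so the direction in either part could hardly differ. The fit to the poor libraries also called other genes in Low against Control, where the edgeR fit to all libraries called none. Among the 9 poor libraries (2 High, 4 Low and 3 Control), High was 0.74 above Low on the log2 scale (SE 0.12, edgeR adjusted p = 0.030) and Low had a log2 fold change of -0.61 against Control (SE 0.11, edgeR adjusted p = 0.020). Among the 6 rich libraries Low had a single library, assumed to vary like the others, and the log2 fold changes were 0.46 (SE 0.31) for High against Low and -0.50 (SE 0.33) for Low against Control. Neither passed, and with 1 Low library the rich libraries say little about Low. High against Control was 0.13 in the poor and -0.040 in the rich libraries.

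Markers of the skeleton and of muscle lay mostly on the same side as IGFBP3 in High against Low and in Low against Control, and none of them passed in either comparison. The 16 cartilage and bone markers had summed levels of 2557 to 5220 CPM in High, 2156 to 3418 CPM in Low and 2128 to 5347 CPM in Control, and none was at 0 in any library. Of the 16, 12 had a log2 fold change above 0 in High against Low and 15 had one below 0 in Low against Control, with medians of 0.33 and -0.52, against medians of -0.01 and 0.00 over all genes tested. The 4 below 0 in High against Low include a SOX9 copy (ENSDARG00000043923) with the smallest p of the 16. Its log2 fold change was -0.41 (SE 0.11, edgeR adjusted p = 0.064). Skeletal muscle markers, 23 in number, summed to 13969 to 21491 CPM in High, 10208 to 31654 CPM in Low and 12098 to 28421 CPM in Control, and pvalb3 in High 4 was the only marker at 0. Of the 23, 18 were above 0 in High against Low (median 0.25) and 17 were below 0 in Low against Control (median -0.32). Low 5 had the highest muscle sum of all 15 libraries, and its IGFBP3 value of 39.6 CPM lay within the narrow range of the other Low libraries. By summed cartilage and bone markers, Control 2, at 2128 CPM, stood below all 5 Low libraries, and High 5, at 2557 CPM, below Low 5, at 3418 CPM, and both had more IGFBP3 than any Low library. High 4, at 4594 CPM, stood above every Low library in this sum, and by mean log2 CPM, at 5.75, below Low 1, Low 2 and Low 5, at 5.76, 5.79 and 5.999. Control 2, at 5.73 by mean log2 CPM, also stood below these libraries, but above Low 3 and Low 4, at 5.66 and 5.57. High 5, at 5.43 by mean log2 CPM, stood below all 5 Low libraries. The part of the skeleton and muscle content in the IGFBP3 difference was not tested.

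The genes most like IGFBP3 over the 15 libraries were ENTPD5, an enzyme that zebrafish need for bone mineral, with a Pearson r of log2 CPM of 0.95, LOXL2, a collagen crosslinking enzyme (0.95), and mybpha, a myosin binding protein of muscle (0.94). All 15 libraries enter this r, so it includes the differences between the groups as well as those in depth and tissue content. The search covered 14789 genes. ENTPD5 (ENSDARG00000053481), which is itself among the bone markers, had 67.7 ± 28.7 CPM in High and 31.7 ± 8.58 CPM in Low, against 70.3 ± 21.9 CPM in Control (SD, n = 5 each). LOXL2 had 52.7 ± 17.3 CPM in High and 32.6 ± 5.86 CPM in Low, against 55.1 ± 9.15 CPM in Control. Both genes were picked by this r, so group means ordered much like those of IGFBP3 follow in part from the choice.

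**Figure D3:**
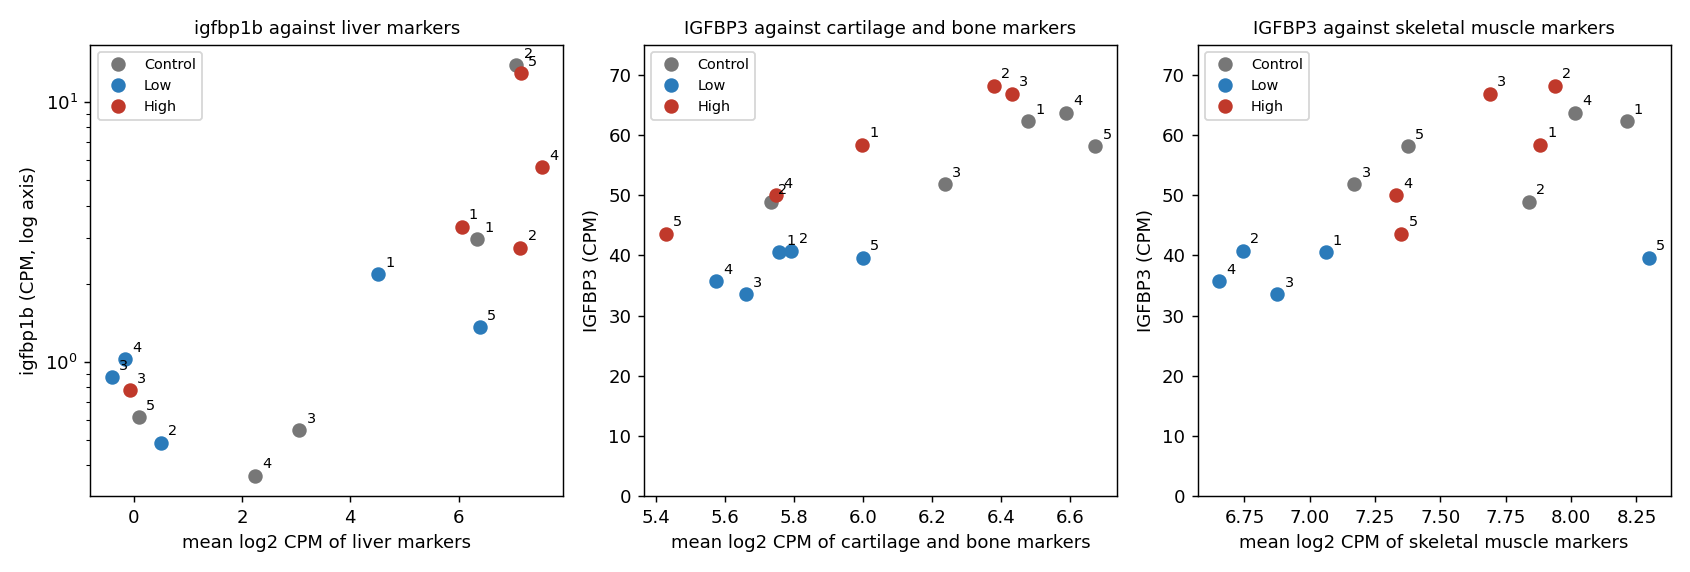
igfbp1b (CPM, log axis) against the mean log2 CPM of liver markers, and IGFBP3 (CPM, linear axis) against that of cartilage and bone and of skeletal muscle markers, 1 point per library with its replicate number. The 8 libraries richest in liver markers hold the 8 highest igfbp1b values, and the Low libraries lie lowest in IGFBP3, Low 5 included at the highest muscle level.

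IGFBP1 (ENSDARG00000099351), the neighbour of IGFBP3 in the genome, was also lowest in Low, without passing the test. Its values in Control 1 to 5 were 25.9, 30.5, 23.2, 22.8 and 15.6 CPM. Those of Low 1 to 5 were 16.4, 20.6, 20.1, 20.7 and 19.9 CPM, and those of High 1 to 5 were 22.9, 32.7, 23.6, 23.7 and 25.7 CPM. All High libraries lay above all Low libraries, while Control, with Control 5 the lowest value of all, overlapped both. High exceeded Low by 0.40 on the log2 scale (SE 0.15, 95% confidence interval 0.07 to 0.72), with an edgeR adjusted p of 0.15. Low against Control stood at -0.27 on the log2 scale (SE 0.15, edgeR adjusted p = 0.59), and High against Control had 0.13 (SE 0.15, edgeR adjusted p = 0.75). In High against Low 4.31% of all genes had groups that did not overlap, and 2 of the 7 tested members did, IGFBP1 and IGFBP3. Over the 15 libraries IGFBP1 had a Pearson r of log2 CPM of 0.57 with the mean of the liver, pancreas and intestine markers. The part of liver content in the IGFBP1 difference was not tested. The genes most like IGFBP1 were CALCB, a calcitonin family peptide (r = 0.85), SIGIRR, a receptor that dampens interleukin signals (0.84), and npr1b, a natriuretic peptide receptor (0.83).

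The second copy, igfbp1b (ENSDARG00000038666), varied far more between libraries of a group than between groups. In Control 1 to 5 it had 2.97, 13.9, 0.547, 0.365 and 0.614 CPM. In Low 1 to 5 it had 2.18, 0.490, 0.872, 1.03 and 1.36 CPM, and in High 1 to 5 it had 3.32, 2.76, 0.780, 5.62 and 12.9 CPM. A single library, Control 2, was far above the other Control libraries, and High 5 above the other High libraries. Counts behind these values were 9 to 305 in Control, and the 38.1-fold range in that group has the 9 counts of Control 4 at its low end. The range was 16.6-fold in High and 4.45-fold in Low, against 1.42-fold, 1.27-fold and 1.95-fold for IGFBP1 in High, Low and Control.

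High igfbp1b went with liver RNA. The 8 libraries with the most igfbp1b, from 1.36 to 13.9 CPM, were the 8 with the most liver marker RNA, and the other 7 had 0.365 to 1.03 CPM. The cut at 8 was seen in the data: the top 5 by each measure shared 3 libraries, and the top 11 shared 8. Within those 8 the order differed: Low 5, with a liver mean log2 CPM of 6.40, had the least igfbp1b, and Control 2, at 7.07, had the most. It differed among the other 7 as well. Control 3 and Control 4, with liver means of 3.06 and 2.24, had 0.547 and 0.365 CPM. Low 3 and Low 4, at -0.40 and -0.16, had 0.872 and 1.03 CPM. The 15 liver markers summed to 1501 to 6259 CPM in High, 1141 to 3616 CPM in Low and 917 to 4016 CPM in Control. These sums do not order the libraries as the mean log2 CPM does. Low 3, with a mean of -0.40, summed to 1256 CPM, and Control 3, with a mean of 3.06, to 917 CPM. Up to 4 of the 15 were at 0 in a library, and fabp10a, the liver fatty acid binding protein, was detected in all, from 0.159 CPM in Low 3 to 622 CPM in High 4. The genes most like igfbp1b were diabloa (r = 0.92) and the plasma protein genes VTN (0.91) and c3a.6 (0.90), vitronectin and a complement component made in liver.

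For igfbp1b the log2 fold changes were 2.10 (SE 0.99) for High against Low, -1.62 (SE 0.98) for Low against Control and 0.48 (SE 0.94) for High against Control, with edgeR adjusted p of 0.23, 0.63 and 0.86. The confidence interval of the last ran from -1.53 to 2.50, so differences of several fold were not detectable with this spread. A single library set the direction of 2 of these: without Control 2 the value for Low against Control was 0.09, and without High 5 that for High against Control was -0.20. All 15 liver markers were above 0 in High against Low (median 2.39) and in High against Control (median 1.21). All 15 were below 0 in Low against Control (median -1.12), and 0 of the 15 passed in any comparison. Over the 15 libraries igfbp1b had a Pearson r of log2 CPM of 0.71 with the mean of the liver, pancreas and intestine markers. The part of liver content in the igfbp1b values was not tested.

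IGFBP5 (ENSDARG00000025348), a binding protein of bone and other connective tissues, overlapped in all 3 groups. It had 155 to 220 CPM in Control, 133 to 174 CPM in Low and 123 to 204 CPM in High. All 5 Low libraries lay below the Control mean of 184 CPM, and in High the libraries 1 to 3 were at 196 CPM or above while High 4 and High 5 were at 123 and 149 CPM. These last 2 were rich in pancreas RNA, as were High 2, at 204 CPM, and Control 2, at 220 CPM, the highest values of their groups. The log2 fold change was -0.08 (SE 0.14) for High against Control, -0.27 (SE 0.14) for Low against Control and 0.19 (SE 0.14) for High against Low, with edgeR adjusted p of 0.84, 0.56 and 0.43. The 95% confidence interval for Low against Control was -0.58 to 0.03. The genes most like it were PDLIM5 (r = 0.95), a cytoskeletal adaptor, thbd (0.92), the thrombomodulin of blood vessels, and scara5 (0.89), a scavenger receptor for ferritin. The other copy, ENSDARG00000039264, was near the limit of detection, at 0.113 to 0.308 CPM in Control, 0.041 to 0.293 CPM in Low and 0.046 to 0.229 CPM in High, with groups that overlapped.

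IGFBP2 (ENSDARG00000031422), a binding protein of embryonic tissue and liver whose overproduction slows growth in zebrafish embryos, varied little between libraries. It had 10.5 to 14.3 CPM in Control, 10.3 to 13.2 CPM in Low and 11.5 to 15.4 CPM in High, and all 3 groups overlapped. Its log2 fold changes were 0.04 (SE 0.11) for High against Control, -0.16 (SE 0.11) for Low against Control and 0.20 (SE 0.11) for High against Low, with edgeR adjusted p of 0.91, 0.69 and 0.31. The 95% confidence intervals of the 3 log2 fold changes lay between -0.41 and 0.44. Most like it were ERG, a transcription factor of blood vessels (r = 0.87), OGN, a matrix proteoglycan (0.85), and SAV1, a Hippo pathway scaffold (0.85). The IGFBP2 copy below the filter (ENSDARG00000052470) had 0.091 to 0.301 CPM in Control, 0.119 to 0.210 CPM in Low and 0.082 to 0.172 CPM in High, and a fit without the filter called neither of the 2 rare copies in any comparison.

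The IGFBP6 copies encode the member that prefers IGF2 over IGF1 in mammals. For igfbp6a the values were 0.743 to 1.68 CPM in Control, 0.587 to 1.37 CPM in Low and 0.325 to 1.72 CPM in High, on 7 to 60 counts. They overlapped, and its log2 fold changes of -0.44 (SE 0.39) for High against Control, -0.53 (SE 0.39) for Low against Control and 0.09 (SE 0.40) for High against Low did not pass (edgeR adjusted p of 0.64, 0.71 and 0.91). For igfbp6b the values were 6.20 to 8.79 CPM in Control, 3.82 to 7.93 CPM in Low and 3.53 to 8.87 CPM in High. Its lowest libraries were Low 5 and High 4, both rich in pancreas RNA, while Control 2, of the same kind, had 8.79 CPM. Its log2 fold changes of -0.26, -0.20 and -0.06 in the 3 comparisons (SE 0.23 each) did not pass, with edgeR adjusted p of 0.63, 0.85 and 0.89. The genes most like igfbp6b were nfil3-6 (r = 0.91), of the NFIL3 transcription factor family, TENT5A (0.91) and VEGFC (0.89), the growth factor of lymphatic vessels. Those most like igfbp6a were SVIL (0.84), FMNL3 (0.83) and PFKFB3 (0.81).

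**Figure D4:**
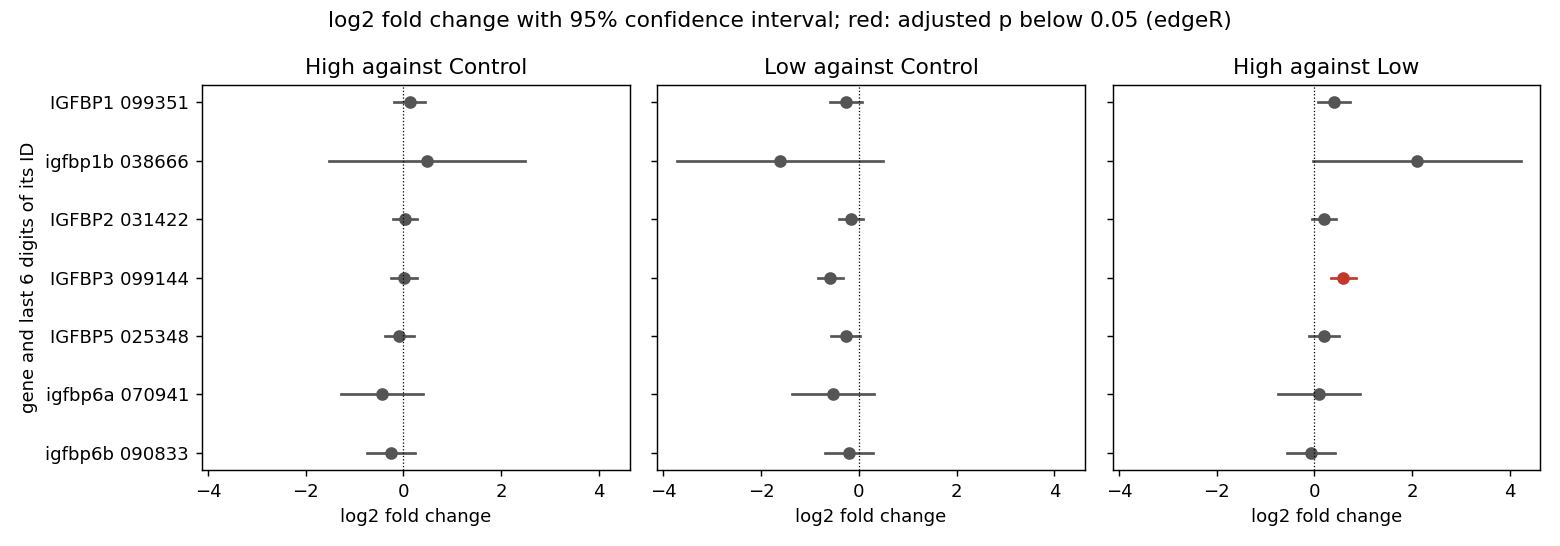
log2 fold change (x axis) with its 95% confidence interval for each tested IGF binding protein gene (y axis) in the 3 comparisons, from the edgeR fit to all 15 libraries. IGFBP3 in High against Low, at 0.59, is the 1 value past the threshold, and igfbp1b has the widest intervals.

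The 7 tested members had log2 fold changes below 0 in 7 cases for Low against Control, with a median of -0.27, while 10917 of 22012 genes were below 0 there. For High against Low 6 were above 0, with a median of 0.20, while 10621 of 22012 genes were above 0. For High against Control 4 were above 0, with a median of 0.01, while 10549 of 22012 genes were above 0. The comparisons share libraries, so these counts are not independent of each other. No member passed in High against Control by edgeR, DESeq2 or limma voom, where edgeR called 0.522% of all genes, and 0 of the 7 had an unadjusted p below 0.05, against 15.8% of all genes.

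Among 15 tested IGF ligands, receptors and substrates, 1 fell and none rose in High against Control, with a median log2 fold change of -0.38 and 14 values below 0. Of all genes tested, 11463 of 22012 were below 0 in that comparison, with a median of -0.015. The gene of this list that fell was 1 of the IRS2 copies (ENSDARG00000075282), a substrate that carries the signal of the insulin and IGF receptors. IRS2 had 50.7 ± 10.6 CPM in High and 82.9 ± 8.16 CPM in Control (SD, n = 5 each), or -0.71 on the log2 scale (SE 0.12, edgeR adjusted p = 0.022). The ligand gene igf2b had 7.70, 9.71, 11.9, 6.87 and 7.95 CPM in High 1 to 5 and 14.4, 14.4, 13.1, 14.4 and 10.9 CPM in Control 1 to 5. High 3 was the 1 High library above the lowest Control value, and the log2 fold change of -0.61 (SE 0.14) did not pass (edgeR adjusted p = 0.060). This value of igf2b was picked after it was seen.

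In Low against Control none of the 15 passed, and 13 were below 0 with a median of -0.10. IRS2 (ENSDARG00000075282), at 58.6 ± 4.54 CPM in Low, differed from Control by -0.50 on the log2 scale (SE 0.12, edgeR adjusted p = 0.43). For igf2b the Low libraries lay in a narrow band of 9.28 to 9.62 CPM, below the lowest Control library at 10.9 CPM (log2 fold change -0.50, SE 0.14, edgeR adjusted p = 0.43). Such a gap, with Low below, was found in 0.813% of all genes. In High against Low none passed, and the 2 with the smallest p were the growth hormone receptor gene ghrb (log2 fold change -0.56, SE 0.19, edgeR adjusted p = 0.11) and the other IRS2 copy (ENSDARG00000037099; -0.44, SE 0.17, edgeR adjusted p = 0.16).

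Proteases that cut IGF binding proteins, and the stanniocalcins that inhibit them, had 0 of 6 tested members past the threshold in each comparison. Their median log2 fold changes were -0.34 for High against Control, -0.38 for Low against Control and -0.10 for High against Low. PAPPA (ENSDARG00000059858), which encodes pappalysin, had 2.13 ± 0.362 CPM in High and 3.73 ± 0.838 CPM in Control, a log2 difference of -0.81 (SE 0.23, edgeR adjusted p = 0.11). The inhibitor gene STC2 (ENSDARG00000102206) had 3.85 ± 1.58 CPM in High and 1.71 ± 0.785 CPM in Low, a difference of 1.17 on the log2 scale (SE 0.34, edgeR adjusted p = 0.081), and Low 5 was the Low library that reached into the High range. Among 3 IGFBP-related genes none passed. IGFBP7 had 73.9 ± 10.4 CPM in High, 63.9 ± 18.6 CPM in Low and 80.3 ± 22.7 CPM in Control.

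**Figure D5:**
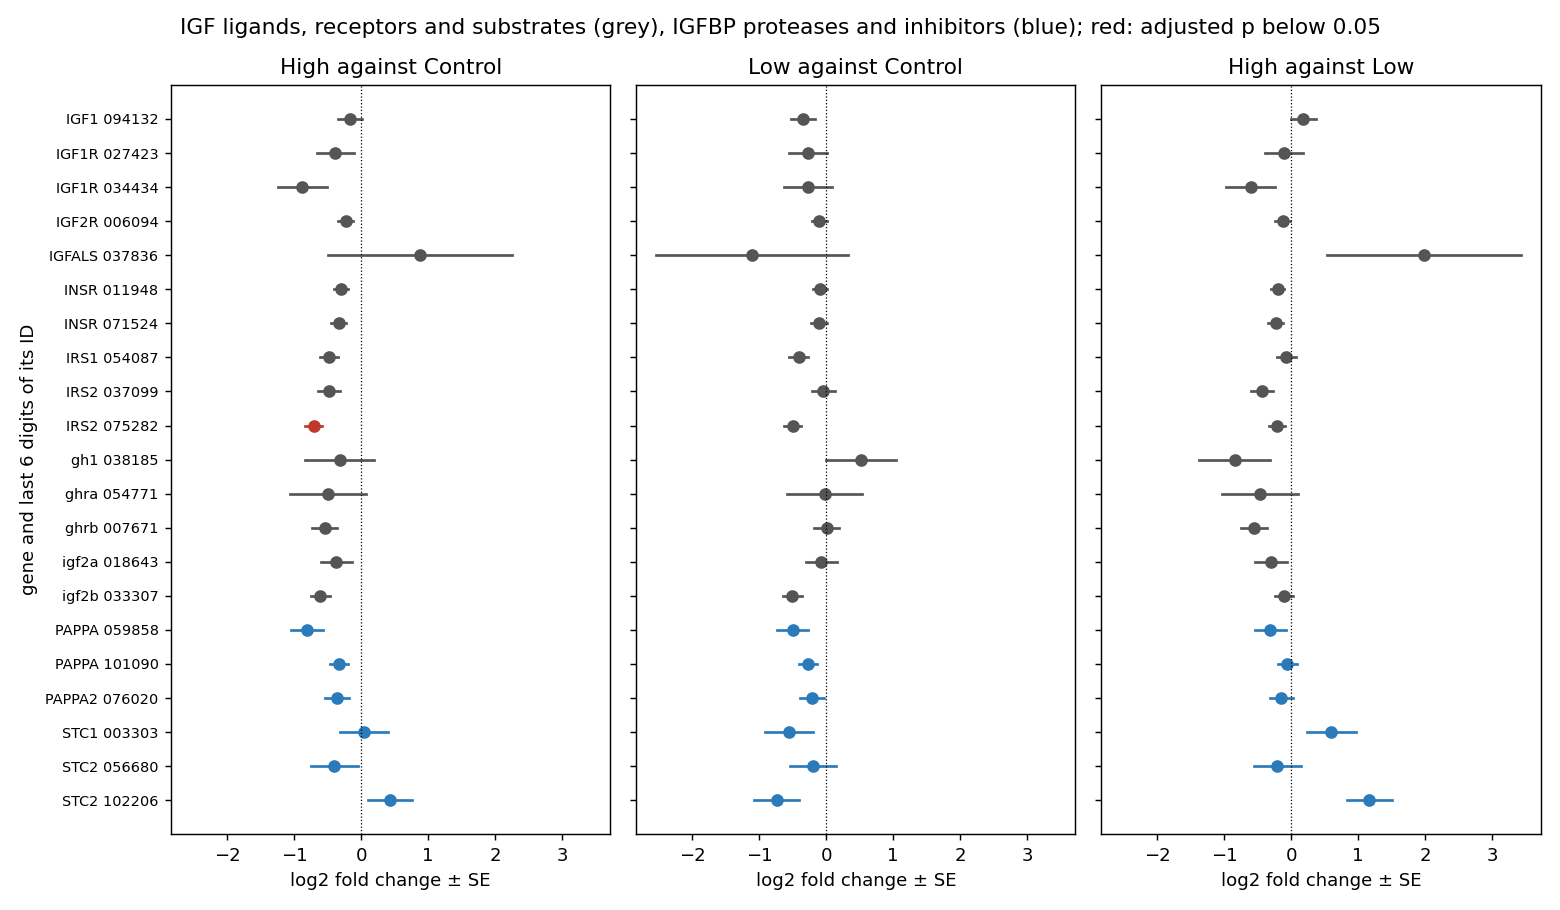
log2 fold change (x axis, ± SE) of the tested IGF ligands, receptors and substrates and of the IGFBP proteases and their inhibitors (y axis, gene and end of its identifier) in the 3 comparisons. IRS2 (ENSDARG00000075282) in High against Control, at -0.71, is the 1 value past the threshold.

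Lists of genes that answer to the same signals as IGFBP1 in vertebrates, with some regulators of those signals, were compared as well. Over all 22012 genes, 42 rose and 73 fell in High against Control, 148 rose and 229 fell in High against Low, and edgeR called none in Low against Control, so lists of this size would hold few or no called genes at that share. In High against Control 11463 of the 22012 genes were below 0, with a median of -0.015. The FoxO and fasting list holds targets and also the factor genes FOXO1, foxo3a and foxo3b, and it shares both IRS2 copies with the list of IGF substrates. Of its 16 tested genes, 3 fell and none rose in High against Control, with all 16 below 0 and a median of -0.64. Beside IRS2 these were CCNG2, a cyclin of quiescent cells, at 65.5 ± 7.24 CPM in High and 104.8 ± 20.0 CPM in Control (log2 fold change -0.68, SE 0.12, edgeR adjusted p = 0.025), and PDK2 (ENSDARG00000020876), a kinase that restrains pyruvate use, at 28.5 ± 4.37 CPM in High and 51.7 ± 13.5 CPM in Control (-0.86, SE 0.17, edgeR adjusted p = 0.039). In High against Low SESN1, a stress-induced sestrin, fell to 226 ± 31.4 CPM in High, against 416 ± 104 CPM in Low (-0.88, SE 0.18, edgeR adjusted p = 0.028). In Low against Control 0 of 16 passed, with a median of -0.27.

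The glucocorticoid list holds targets and also the receptor gene NR3C1. It had 0 of 9 members past the threshold in High against Control (median -0.67) and in Low against Control (median -0.49). In High against Low 1 of the 9 fell. That gene was the clock gene PER1 (ENSDARG00000012499), at 4.92 ± 1.16 CPM in High and 9.57 ± 2.06 CPM in Low (log2 fold change -0.96, SE 0.21, edgeR adjusted p = 0.034). Of the 9, 4 were above 0 in that comparison and 5 below, with a median of -0.17. FKBP5, with 215 ± 130 CPM in High, 78.4 ± 84.8 CPM in Low and 309 ± 158 CPM in Control, was lowest in Low. KLF9 was lowest there too, with 23.2 ± 14.4, 11.7 ± 8.57 and 52.5 ± 23.7 CPM in High, Low and Control. Neither passed in any comparison, and FKBP5 ran from 4.15 to 203 CPM within Low. Other genes of the list went another way. NR3C1 was highest in Low, with 10.7 ± 3.35, 16.7 ± 3.27 and 14.6 ± 4.08 CPM in High, Low and Control, and tsc22d3 and DUSP1 were lowest in High. Of 29 hypoxia genes 0 passed in High against Control and in Low against Control, with medians of 0.00 and -0.03, and PDK1 fell in High against Low, to 17.8 ± 2.06 CPM in High, against 24.8 ± 2.42 CPM in Low (-0.48, SE 0.11, edgeR adjusted p = 0.041). None of 11 genes of the integrated stress response passed in any comparison, with medians of -0.14, -0.11 and 0.10. Those with the smallest p were nupr1a in High against Control (-0.95, SE 0.24, edgeR adjusted p = 0.078) and nupr1b in Low against Control (-0.91, SE 0.29, edgeR adjusted p = 0.43).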

How the data were processed

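The deposited file holds raw counts for each Ensembl gene in 15 libraries, without normalization, per the file headers and the values. Per the submitters' processing notes, Trimmomatic, FastQC, MultiQC and DESeq2 were used, and the builds listed are GRCz11 and mm10. Aligner, counting program and strand setting: not given in the sources used here, so near-identical or overlapping genes are uncertain. Columns were matched by library name, and 15 trailing lines without a gene were left out. Symbols came from a gene name table (29201 identifiers matched), and list names without a match were tried in capitals without the copy letter; 14 of 205 names stayed unmatched. In R 4.3.3 with edgeR 4.0.16, genes were filtered with filterByExpr, scaled by TMM and fitted by the robust quasi-likelihood test to all libraries, with Benjamini-Hochberg adjustment within a comparison and a threshold of 0.05. CPM use TMM-scaled totals, and log2 CPM a prior count of 2. The fit was tested on simulated data. No libraries of the same group were identical. Named were all members, and from each pathway list the members that passed or, where none did, those with the smallest p, some given by count only; for each tested member the 3 most correlated genes are given, among those whose mean log2 CPM reached 1. Members and lists were chosen with earlier results of these data known. Alternatives were RLE scaling, no filter, DESeq2 1.42.0, limma 3.58.1 voom, fits of the groups compared, a replicate block, a digestive covariate and each library left out. Gene names for neighbours came from RefSeq on GRCz12tu, a build other than that of the files, so no coordinates are given.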

Additional observations from a re-analysis of the deposited data

Results flagged for a closer look

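In 4 of the 27 sets of 5 libraries (9 genes in 3 groups), 1 library lay far from the others of its group by Dixon's test, which chance does in about 1 of 20 sets. IGFBP1 (ENSDARG00000099351) was low in Low 1, at 16.4 CPM, against 19.9 CPM in the next Low library, and high in High 2, at 32.7 CPM, against 25.7 CPM in the next High library. igfbp1b was high in Control 2, at 13.9 CPM, against 2.97 CPM in the next Control library. The rare IGFBP2 copy (ENSDARG00000052470) was high in Control 1, at 0.301 CPM on 8 counts. IGFBP3 had no such library.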

How the results depend on the processing

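The number of genes called moved by more than 1.5 times between tools. For High against Control it was 115, against 920 by DESeq2, 254 by limma voom, 51 in a fit of these groups alone and 19 to 362 with a library left out. For Low against Control it was 0, against 65 by DESeq2, 1436 by limma voom and 0 to 507, the highest without Low 5. For High against Low it was 377, against 1650 by DESeq2, 4575 by limma voom, 118 in a fit of these groups alone, 65 with the digestive covariate and 39 to 3778, the highest without Low 5. Libraries poor in pancreas RNA gave 0, 504 and 233, and rich ones 1, 0 and 1, with fewer samples. The replicate block gave 20, 1 and 106. Same-numbered libraries correlated at -0.54 to 0.54, and 3, 3 and 4 of 10 matched best with their own number. The labels do not say that the numbers pair libraries, and these values do not settle it.

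Members called in High against Low were 1, but 2 by limma voom (IGFBP1 at 0.45), which called 4575 of 22012 genes there. They were 0 with the block, the covariate or these groups alone, and 0 to 1 with a library left out. In Low against Control they were 0, but 1 by DESeq2, limma voom and poor libraries, and 0 to 1 with a library left out. Of all genes, DESeq2 called 65 there, limma voom 1436 and the poor libraries 504. IGFBP3 in High against Low was 0.59 with the block, 0.64 with the covariate, 0.59 in these groups alone and 0.46 in rich libraries, none past the threshold, and 0.52 to 0.69 with a library left out. In Low against Control it passed at -0.58 by DESeq2, -0.66 by limma voom and -0.61 in poor libraries, and ran from -0.63 to -0.54 with a library left out. In High against Control, near 0, it turned to -0.040 in rich libraries and -0.026 by limma voom, and ran from -0.059 to 0.11.

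Other values that changed sign had not passed. In poor libraries, High against Control was 0.23 for IGFBP5 (ENSDARG00000025348), 0.13 for igfbp6a and 0.075 for igfbp6b, and Low against Control was 0.070 for igfbp6b. igfbp1b in Low against Control was 0.31 by limma voom. High against Low was -0.85 for igfbp6a in rich libraries, and for igfbp6b 0.12 with the covariate, 0.0044 in poor and 0.58 in rich libraries. With a library left out, High against Control ran from -0.20 to 2.18 for igfbp1b, -0.020 to 0.085 for IGFBP2 (ENSDARG00000031422) and -0.15 to 0.037 for IGFBP5; Low against Control from -1.95 to 0.085 for igfbp1b; High against Low from -0.21 to 0.32 for igfbp6a and -0.22 to 0.10 for igfbp6b. The cause of these changes was not tested. RLE scaling and no filter changed no call of a member. The rare copies, at 9 counts or fewer, and igfbp6a, at 7 to 60, are limited by depth.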

Other observations

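Markers of ionocytes, a cell type in which zebrafish igfbp5a is known, had similar levels across the diets. The mean log2 CPM of all 18 ran from 3.06 to 3.55 in High, 3.27 to 3.59 in Low and 3.28 to 3.60 in Control. Of the 15 tested, 0 passed the edgeR test in any comparison. Their median log2 fold change was 0.03 in High against Control, -0.06 in Low against Control and -0.03 in High against Low. Epidermis markers, 10 in number, had medians of -0.15, -0.21 and 0.13 in High against Control, Low against Control and High against Low, with 0 past the threshold.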
